A study of Mus musculus with 2 samples.

Results

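The 5 microRNA genes described here are Mir144, Mir451a and Mir451b on mouse chromosome 11, and Mir486 and Mir3107 on chromosome 8, out of 2202 microRNA genes with a row in the files. They were chosen by name, as the genes of the Mir144 and Mir451 cluster and of the Mir486 locus together with the genes annotated on their opposite strands. Small RNA was sequenced from heart tissue of male B6CASTF1/J mice aged 2 months, a hybrid of a laboratory strain and a strain derived from wild mice. The 2 libraries form 1 group with no treatment, called replicate 1 and replicate 2. Both libraries carry the same donor identifier, and that they come from separate males rests on the sample descriptions. The labels do not say whether blood was rinsed from the hearts.

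MicroRNAs are short RNAs cut from hairpin precursors, and they pair with messenger RNAs chiefly through the seed, which is bases 2 to 8. Mir144 and Mir451a are made from 1 primary transcript that the factor GATA1 switches on in maturing red blood cells, and miR-451a is among the main microRNAs of circulating red cells. Its short hairpin is not cut by Dicer but by Argonaute 2, the protein that carries the finished microRNA. Mir486 lies within Ank1, the gene of ankyrin-1, which anchors the red cell membrane to its skeleton. It is abundant in red cells and is also known from striated muscle.

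RefSeq sequences on GRCm38.p6 matched 3 of the 5 genes, Mir144, Mir451a and Mir451b. Mir486 and Mir3107 were not among those matched. The hairpins of the cluster are shown because the place of the mature sequence in them differs between the genes, with mature sequences in capitals.
Mir144 hairpin: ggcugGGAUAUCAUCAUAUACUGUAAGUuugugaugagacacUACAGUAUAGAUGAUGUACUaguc
Mir451a hairpin: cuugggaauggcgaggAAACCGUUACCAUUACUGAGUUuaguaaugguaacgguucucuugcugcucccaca
Mir451b hairpin: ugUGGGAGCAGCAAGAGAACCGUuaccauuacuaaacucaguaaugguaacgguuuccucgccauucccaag
The Mir144 hairpin holds a mature sequence on each arm, at bases 6 to 28 and 43 to 62 of its 66 bases. The Mir451a hairpin holds a single one, at bases 17 to 38 of 72, which runs past the arm into the loop.

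The mature sequences are shown with their seeds in capitals, to compare what each could pair with.
mmu-miR-144-5p: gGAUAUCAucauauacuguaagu
mmu-miR-144-3p: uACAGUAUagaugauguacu
mmu-miR-451a: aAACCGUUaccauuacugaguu
mmu-miR-451b: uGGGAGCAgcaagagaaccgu
No 2 of these 4 share a seed, and no other of the 1738 mature sequences in the table shares a seed with any of them. On bases 2 to 7 alone, miR-144-3p shares its letters with miR-101a-3p.

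Mir144 (ENSMUSG00000065401.1) lies on the plus strand at chr11:78073005-78073070 of mm10, and Mir451a (ENSMUSG00000070065.1) follows at chr11:78073170-78073241, 99 bases downstream. No annotated gene outside the microRNA genes spans either hairpin. The nearest is Eral1, a protein-coding gene on the minus strand, 306 bases from Mir144 and 135 bases from Mir451a. Mir451b (ENSMUSG00000104813.1) has the same start and end as Mir451a on the minus strand. Mir486 (ENSMUSG00000070084.3) lies on the plus strand at chr8:23142555-23142682, in an intron of Ank1. Mir3107 (ENSMUSG00000106471.1), a gene with the synonym mir-486b, lies on the minus strand at chr8:23142573-23142662. It is in an intron of the antisense gene Gm15816, and wholly within the span of Mir486.

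Replicate 1 held 3650782 and replicate 2 held 3810675 counts on the strand of a microRNA gene, out of 10362589 and 10483233 reads. Levels are given as CPM, the count of a gene scaled to a library total of 1000000 gene counts. Reads that mapped to several places, 48.0% and 46.4% of the reads in replicates 1 and 2, enter no gene. Mature sequences differ in how readily they enter a library, and the counts carry no correction for this, so an order of genes is an order of reads. In a whole tissue, fewer red cells and less of a microRNA per cell cannot be told apart.

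Of the 5 genes, 4 reached 2 CPM in each library and are called detected, as are 337 of the 2202 genes. Together the 5 genes held 0.328% of the microRNA counts in replicate 1, with an exact Clopper-Pearson 95% interval of 0.322 to 0.334%. In replicate 2 they held 0.299%, with an interval of 0.294 to 0.305%, and the mean was 0.314% ± 0.0203 (SD, n = 2). Such intervals cover counting error only. The sum was 1.10 times as high in replicate 1 as in replicate 2, while single genes stood in opposite orders in the libraries.

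Mir451a, the red cell microRNA, had 7027 counts in replicate 1 and 4636 in replicate 2. These are 1925 and 1217 CPM, a mean of 1571 CPM ± 501 (SD, n = 2), rank 53 of 2202. This was 29.1 times the median of the detected genes, 54.1 CPM.

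Mir486 had 3232 counts in replicate 1 and 4827 in replicate 2, which are 885 and 1267 CPM. Its mean was 1076 CPM ± 270 (SD, n = 2), at rank 62. It was higher in replicate 2, the opposite of Mir451a.

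Mir144 had 1502 counts in replicate 1 and 1817 in replicate 2, at 411 and 477 CPM. Its mean was 444 CPM ± 46.2 (SD, n = 2), at rank 89, with the smallest spread relative to its mean of the 4 detected genes. Mir3107 had 211 and 123 counts in replicates 1 and 2, at 57.8 and 32.3 CPM and a mean of 45.0 CPM ± 18.0 (SD, n = 2), at rank 179. It was the only detected member below the median of the detected genes.

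Mir451b had 0 counts in both libraries. A count of 0 allows up to 3 counts, or 0.822 CPM in replicate 1 and 0.787 CPM in replicate 2. Against the 11663 reads on the Mir451a strand over both libraries, this allows a minus strand share of up to 0.0257%.

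**Figure D1:**
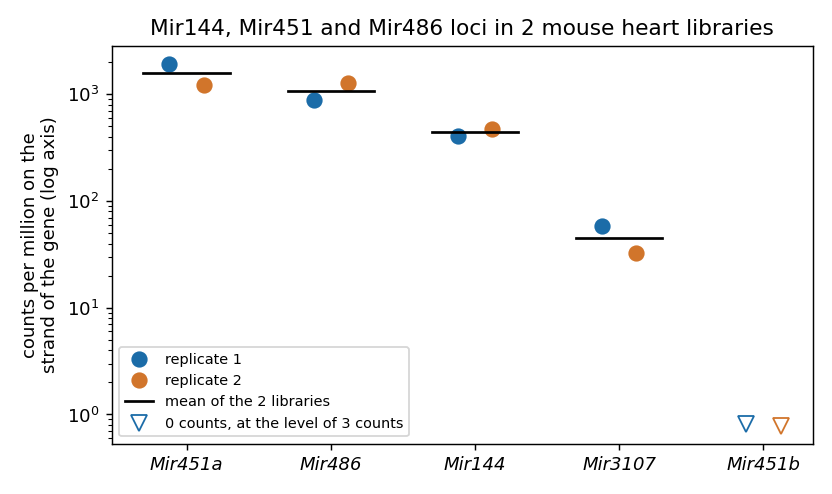
Levels in CPM, on a log axis, for each of the 5 genes, with 1 point per library and a bar at the mean of the 2 libraries; open triangles mark the level of 3 counts for Mir451b, which had 0. Mir451a and Mir3107 are higher in replicate 1, at 1925 and 57.8 CPM, and Mir486 and Mir144 in replicate 2, at 1267 and 477 CPM.

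The order of the genes by reads was not settled between the most abundant members. A read within the part of Mir486 that is identical on both strands enters no gene, as set out below. Ratios with Mir486 are therefore of its remaining reads and do not order the microRNAs themselves. Mir451a exceeded Mir486 2.17 times in replicate 1 and was 0.960 times its count in replicate 2. The mean log2 ratio of Mir451a over Mir486 was 0.53 ± 0.83 (SD, n = 2), so the difference was smaller than the spread between the libraries. In replicate 2 the Mir451a share of the pair was 49.0%, with a Clopper-Pearson 95% interval of 48.0 to 50.0%. In replicate 1 the share was 68.5% (67.6 to 69.4), and the intervals did not overlap.

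Mir451a exceeded Mir144, its partner on the same primary transcript, in both libraries. Its share of their summed counts was 82.4% in replicate 1, with an exact interval of 81.6 to 83.2%. In replicate 2 it was 71.8%, with an interval of 70.7 to 72.9%. The mean log2 ratio was 1.79 ± 0.62 (SD, n = 2). With 2 libraries, an exact sign-flip permutation test of such a ratio cannot give a two-sided p below 0.5, so none was run. The ratio is of reads and joins both arms of Mir144.

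Mir486 had 2.15 times the reads of Mir144 in replicate 1, and 2.66 times in replicate 2. Their log2 ratio averaged 1.26 ± 0.21 (SD, n = 2). This was the steadiest of the ratios computed among the 3 most abundant members, although these genes lie on different chromosomes. It too rests on the remaining reads of Mir486. Within the summed reads of the 5 genes, Mir451a took 58.7% in replicate 1 and 40.7% in replicate 2, and Mir486 took 27.0% and 42.3%.

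The hairpins of both loci were then compared with their own opposite strands, since reads that fit more than 1 place enter no gene. The mature miR-451a and the window of the opposite strand most like it are given here, with the differing bases in capitals.
mmu-miR-451a: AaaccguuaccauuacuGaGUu
opposite strand: GaaccguuaccauuacuAaACu
They differ at 4 of 22 bases, written as A1G, G18A, G20A and U21C, with positions counted from the 5′ end of miR-451a and the base of miR-451a given first. The longest run of identical bases is 16, so a full-length miR-451a read has a single exact place here. For miR-144-5p and miR-144-3p the longest run on the opposite strand was 9 bases.

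At the Mir486 locus this differed. In the GENCODE hairpins, bases 33 to 54 of Mir486 are identical over 22 bases to a stretch of its opposite strand, because the run at bases 73 to 94 is its exact reverse complement. A read that lies within either run fits the plus and the minus strand equally, and a read counted for Mir486 or Mir3107 as an exact match must include bases outside these runs. Such a run of 22 bases or more was found in 68 of the 2202 hairpins (3.09%), and 2 of the 337 detected genes have one, Mir486 and Mir3107. How many reads of this locus went to the row for several places is not known from the counts, so the levels of both genes are those of the remaining reads. Outside their own loci, no member shared more than 13 bases with another microRNA hairpin.

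**Figure D2:**
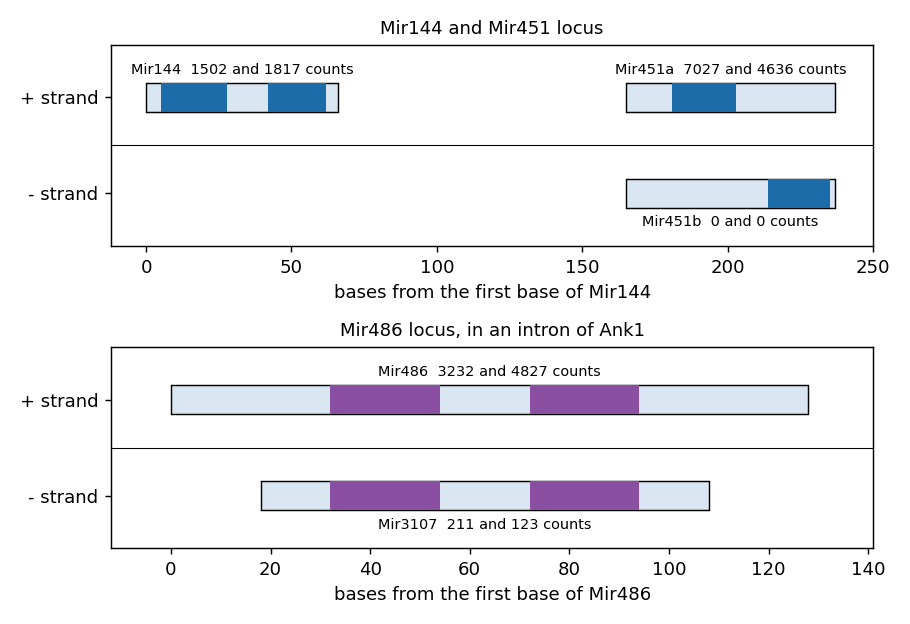
Maps of both loci to scale, in bases from the first base of Mir144 and of Mir486, with hairpins as boxes on their strand and the counts on that strand in replicate 1 and replicate 2. Dark blue marks mature sequences, and purple marks the runs of 22 bases that are identical on both strands of the Mir486 locus.

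The strand columns of the files follow from this arrangement. The reads counted on the opposite strand of Mir3107, 3232 and 4827 in replicates 1 and 2, are equal to those on the strand of Mir486, so none lay wholly in the 18 bases before or the 20 bases after the Mir3107 span. Likewise the reads opposite Mir451b numbered 7027 and 4636, as for Mir451a. Mir144 has no opposite partner and had 0 reads on its opposite strand in both libraries.

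In the column that ignores strand, a read over 2 genes is counted for neither. There Mir451a, Mir451b, Mir486 and Mir3107 had 0 counts, and Mir144 kept its 1502 and 1817. Of the summed reads of the 5 genes, 87.5% in replicate 1 and 84.1% in replicate 2 were lost in that column.

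The share of minus strand reads at the Mir486 locus was 6.13% in replicate 1, with an exact interval of 5.35 to 6.98%. In replicate 2 it was 2.48%, with an interval of 2.07 to 2.96%. Mir486 thus had 15.3 times the reads of Mir3107 in replicate 1 and 39.2 times in replicate 2. Their log2 ratio averaged 4.60 ± 0.95 (SD, n = 2). Among the 18 pairs of microRNA genes that overlap on opposite strands and hold at least 100 counts, the minor strand had no count in 10, Mir451a and Mir451b among them. The Mir486 locus had the second highest share on the minor strand, 3.98% over both libraries. Only Mir24-1 and Mir3074-1 had a higher one, 16.7%. At the Mir486 locus the share is of the reads that remain after those fitting both strands are left out. Mir24-1 has a like-named copy elsewhere in the genome, Mir24-2, so its count is uncertain too. The same holds for other genes among the 18 pairs, such as Mir24-2, Mir1a-2 and Mirlet7f-1. Of these, Mir24-2 and Mirlet7f-1 are in pairs without a count on the minor strand. The shares of the 18 pairs are therefore not directly comparable, and their order is not one of antisense RNA levels.

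For each gene, its counts in both libraries were put to a binomial test, exact and two-sided, with library sizes scaled by TMM in edgeR and Benjamini-Hochberg adjustment over the 320 genes past a low-count filter. The test sets 2 libraries against counting noise and does not compare conditions. Of the 320 genes, 206 (64.4%) differed at an adjusted p under 0.05, with 33.8% higher and 30.6% lower in replicate 1. All 4 tested members differed, 2 in each direction, and Mir451b did not pass the filter. With most genes of the table called, this count says little of these 4 in particular.

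Mir451a was higher in replicate 1, with a log2 ratio of replicate 1 over replicate 2 of 0.68 and a fold of 1.60 (adjusted p = 4.16e-137 by this exact test). Mir3107 was also higher in replicate 1, by 0.85 (adjusted p = 3.19e-07, the same exact test), from far fewer reads. Mir486 was lower in replicate 1, with a log2 ratio of -0.50 (adjusted p = 2.23e-53, the same exact test). Mir144 was lower too, at -0.20 (adjusted p = 0.000156, the same exact test). The median absolute log2 ratio over the 320 genes was 0.44, and 113 genes had a larger one than Mir451a, 86 than Mir3107, 145 than Mir486 and 238 than Mir144. The members therefore lay within the usual range between these libraries.

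**Figure D3:**
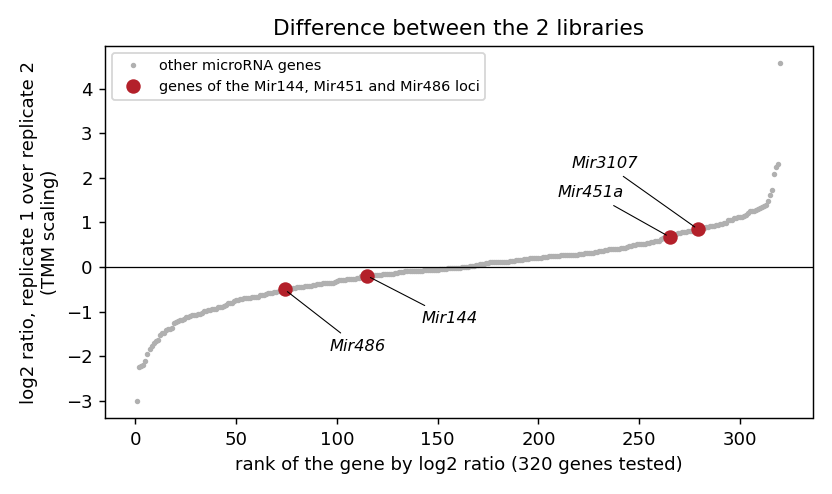
The log2 ratio of replicate 1 over replicate 2 with TMM scaling, for the 320 genes tested, in order of the ratio; red points are Mir451a, Mir486, Mir144 and the antisense gene Mir3107. Mir451a at 0.68 and Mir3107 at 0.85 lie above 0, and Mir486 at -0.50 and Mir144 at -0.20 lie below it.

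Mir144 and Mir451a, which come from 1 transcript, thus differed in their ratio between the libraries by 0.87 on the log2 scale. Of the 75 pairs of adjacent hairpins on 1 strand at most 10000 bases apart that passed the filter, 30 differed by more, and the median was 0.78. In 42 of the 75 pairs the genes had opposite signs. The widest gap was that of Mir206 and Mir133b, at 3.23. The difference within the Mir144 and Mir451a cluster was thus not unusual for adjacent hairpins in these libraries. The pairs were chosen by distance and the filter, not by a shared transcript or by like counts. They include genes with like-named copies elsewhere, such as Mir16-1.

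Other blood and heart cells were set beside the red cell genes through marker lists. The erythroid markers Mir451a, Mir144 and Mir486 summed to 3222 CPM in replicate 1 and to 2960 CPM in replicate 2, and none was at 0. This sum leaves out Mir486 reads that fit both strands, so it may be short by an unknown amount, as may its ratios to other lists. The 5 leukocyte markers summed to 10633 and 8667 CPM, about 3.30 times the erythroid sum in replicate 1 and 2.93 times in replicate 2. They were led by Mir150, known from mature lymphocytes, at 3745 CPM ± 459, and Mir155, known from activated immune cells, at 3304 CPM ± 266 (SD, n = 2 each). Mir146 was at 1570 CPM ± 131, Mir142 at 760 CPM ± 469, and Mir223, known from myeloid cells and platelets, at 272 CPM ± 64.7 (SD, n = 2 each).

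All 5 leukocyte genes were higher in replicate 1 by the binomial test, as was Mir451a, where 33.8% of all genes were. For Mir155, Mir146 and Mir150 the log2 ratios were small, at 0.18, 0.18 and 0.26. These lay under the median absolute ratio of 0.44 over all genes tested. Mir223 was at 0.50 and Mir142 at 1.36. Mir144 and Mir486 were lower in replicate 1. The heart muscle markers Mir208a, Mir208b and Mir499 summed to 3954 CPM in replicate 1 and to 6890 CPM in replicate 2. The erythroid sum was thus 0.815 and 0.430 times the heart muscle sum. This list leaves out other muscle genes, such as those of Mir1 and Mir133. The ratios therefore do not set red cell against heart muscle microRNA as a whole. Within the heart muscle sum Mir208a was at 1329 and 4265 CPM, while Mir499 was at 2601 and 2507 CPM in replicates 1 and 2. Endothelial Mir126a held 5.22% of the counts in replicate 1 and 7.02% in replicate 2, and the smooth muscle genes Mir143 and Mir145a held 5.46% and 5.33%. Mir486, Mir144, Mir126a and the heart muscle sum were thus all higher in replicate 2, the last through Mir208a and Mir208b. Mir499 was slightly higher in replicate 1 by the binomial test, at a log2 ratio of 0.07. Of the smooth muscle genes, Mir145a was higher in replicate 1, at 0.92, and Mir143 slightly lower, at -0.02. The part of these cell types in the shifts of Mir486 and Mir144 was not tested. Liver Mir122, which blood plasma also carries, was at 142 CPM in replicate 1 and 97.9 CPM in replicate 2.

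**Figure D4:**
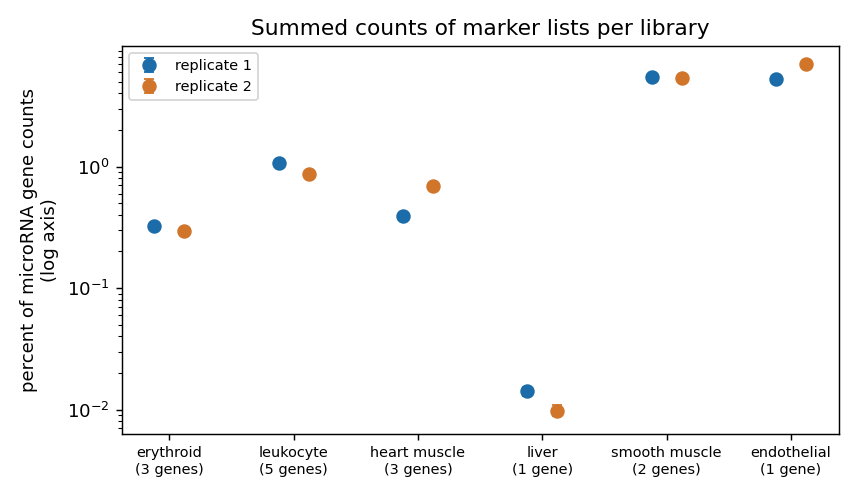
Percent of microRNA gene counts, on a log axis, summed over each marker list in replicate 1 and replicate 2, with Clopper-Pearson 95% intervals that are mostly smaller than the points. The erythroid sums, 0.322% and 0.296%, lie below the leukocyte sums and closer together than the heart muscle sums, 0.395% and 0.689%. The erythroid sums leave out Mir486 reads that fit both strands.

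A further list held 12 microRNA genes linked to red cell formation elsewhere, several of which act on stem cell or lineage factors. It overlaps the leukocyte list by 3 genes, Mir150, Mir155 and Mir223. Of the 12 genes, 11 differed between the libraries, 6 higher and 5 lower in replicate 1, against 64.4% of all genes tested. The 3 shared with the leukocyte list are among the 6. The median log2 ratio of the list was 0.06, beside -0.02 over all genes tested. Mir221 and Mir222, which act on the receptor Kit, went apart, with log2 ratios of 0.40 and -0.99. Mir16-1 and Mir15a, known to act on Myb, also went apart, at 1.38 and -1.26. Mir34a, Mir210 and Mir24-2 were lower in replicate 1, at -0.66, -1.17 and -1.76, and Mir376a was higher, at 1.14. Mir24-1 was tested but did not differ, with 292 counts in replicate 1 and 320 in replicate 2 (adjusted p = 0.702 by the exact test). Mir16-1, Mir24-1 and Mir24-2 have like-named copies elsewhere in the genome. Sequence shared between genes was searched for the 5 members only. A read that fits both copies enters neither gene, so these counts are uncertain and their ratios may not be those of the mature microRNAs.

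By mean level, the next genes above Mir451a were Mir10a at 1602 CPM ± 42.3 and Mir328 at 1662 CPM ± 58.0, and the next below were Mir146 at 1570 CPM ± 131 and Mir15a at 1490 CPM ± 875 (SD, n = 2 each). Above Mir486 stood Mir30c-2 at 1289 CPM ± 27.3 and Mir497 at 1290 CPM ± 1079, and below it, at a smaller distance, Mir676 at 1054 CPM ± 7.29 and Mir127 at 1049 CPM ± 50.2 (SD, n = 2 each). Around Mir144 were Mir30b and Mir181c above, at 449 and 460 CPM, and Mir132 and Mir1839 below, at 432 and 427 CPM. Around Mir3107 were Mir92b and Mir32 above, at 45.2 and 45.3 CPM, and Mir431 and Mir467c below, at 45.0 and 44.9 CPM. Each of these 16 means differed from that of its member by less than the SD of the member. The genes were chosen as nearest in level, so small differences were set by that choice. By ratio between the libraries, the genes nearest to Mir451a among those at 100 CPM or more were Mir30a at 0.62, Mir487b at 0.74 and Mir15b at 0.58. With 2 libraries no correlation can be given.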

How the data were processed

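The deposited files hold raw read counts per microRNA gene, 1 file per library, which the authors made on mm10 with GENCODE M21, per the text deposited with the files. The aligner and its settings are not given in the sources used here. A file has 4 rows that name no gene, which were left out of library sizes, and 3 count columns, which ignore strand, take reads of the gene's own strand, or take reads of the other strand. Reads mapped to several places have their own row. The rows without a gene held 64.8% and 63.6% of reads in replicates 1 and 2.

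Members and lists were chosen with earlier results of these data known. The genes named are the 5 members, the list genes with 10 or more counts in a library, and those next to a member in level or ratio. Those of the strand and cluster comparisons were named after their values were seen. CPM used the sum of gene counts on the strand. Ratios of genes used CPM + 0.5. Shares have exact Clopper-Pearson 95% intervals. Shared runs were searched in GENCODE hairpins. TMM sizes came from edgeR 4.0.16 in R 4.3.3, and DESeq2 1.42.0 size factors were an alternative. The exact binomial test was checked on simulated counts with counting noise and a set of changed genes. That check held no other spread between libraries, so it does not cover the spread seen here. SciPy 1.17.1 was used.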

Additional observations from a re-analysis of the deposited data

How the results depend on the processing

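All 4 tested members differed between the libraries, in the same directions, with DESeq2 size factors, with plain library totals, with no filter on low counts, and over genes with 10 CPM in each library. Of all genes tested, 64.1%, 63.8%, 29.5% and 73.9% differed under these settings, so the background was far lower without the filter. The split turned to 95 genes higher and 118 lower in replicate 1 there, and to 87 and 89 at 10 CPM, against 108 and 98 with the filter and TMM. In the column without strand the count was 1, since only Mir144 has counts there. In that column the share of the 5 genes was 0.0576%, and the log2 ratio of Mir451a over Mir144 turned to -10.17, set by the pseudocount because Mir451a has 0 counts. The ratios of Mir486 to Mir451a and to Mir3107 could not be given there, with both genes at 0. The share was 0.276% of uniquely mapped reads, 0.112% of all reads, and 0.362% without the most abundant gene, each through its denominator. Leaving out each replicate in turn gave a share of 0.299 to 0.328%. It gave log2 ratios of 1.35 to 2.22 for Mir451a over Mir144 and 3.93 to 5.27 for Mir486 over Mir3107. For Mir451a over Mir486 it gave -0.058 without replicate 1 and 1.12 without replicate 2, so this order of reads rests on replicate 1. A pseudocount of 1 CPM moved no ratio beyond the spread between the libraries. No paired analysis was possible because the libraries form a single group. For Mir3107, with 211 and 123 counts, depth limits the precision. At the Mir486 locus, more depth would not place reads that fit both strands.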
